A study of Neurospora crassa with 2 samples.

Results

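The genes described here encode 8 cell wall proteins of the filamentous fungus Neurospora crassa: the non-anchored wall proteins ncw-1 and ncw-2, and the anchored wall proteins acw-1, acw-3, acw-5, acw-7, acw-8 and acw-12. They were chosen by locus tag from a table of 9730 genes, and all 8 were found in it. Their family is wider: by symbol or synonym the reference annotation holds 19 genes with an ncw or acw name, 12 of them acw and 7 ncw, so 11 relatives serve as the nearest comparison. RNA was sequenced from mycelia of 2 strains. The first, Δ3βGΔncw-1, lacks ncw-1 and also gh1-1, gh3-3 and gh3-4, which encode β-glucosidases. The second, Δ3βG, lacks those β-glucosidase genes alone, so neither culture is wild type and both cleave cellobiose poorly. Both were grown for 20 h in minimal medium and were then held for 4 h in Vogel's salts with 1% cellobiose, and both genotype labels carry the letter a. Each strain is represented by 1 library. The genotypes could therefore not be tested against each other, and the labels do not say how many transformants or cultures lie behind a library.

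The wall of a Neurospora hypha is a mesh of chitin, β-1,3-glucan and galactomannan into which glycoproteins are built. Anchored wall proteins carry a glycosylphosphatidylinositol (GPI) lipid at the C-terminus that first holds them at the plasma membrane, and they are then joined to wall polymers through their galactomannan. Non-anchored wall proteins carry no such lipid and reach the wall by secretion. Most acw and ncw genes are named for where the protein is found, and for most members no more specific role is given here. The study's title concerns NCW-1, cellulase production and the uptake of cellobiose. The comparison asks which other wall protein transcripts differ when ncw-1 is missing.

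Levels are RPKM, that is, reads divided by gene model length in kilobases and by library size, and can be compared between genes because they are per length. The values were scaled to 20019350 reads in Δ3βGΔncw-1 and 20510798 reads in Δ3βG. Folds are ratios of RPKM. Log2 ratios are of RPKM + 1, Δ3βGΔncw-1 over Δ3βG, a scale that understates the difference of low genes. The 95% intervals are exact intervals from recovered whole reads (Clopper-Pearson for a fold, Poisson for a level) and cover counting error only. They hold no variation between cultures. A gene counted as higher or lower if it reached 10 RPKM in either library and RPKM + 1 differed at least 2-fold, a log2 ratio of at least 1 or at most −1. A gene whose RPKM ratio is just past 2-fold can therefore count as neither. Leaving out ncw-1, 5988 genes passed that minimum, and 8.08% of them counted as higher and 11.1% as lower. The median log2 ratio over these genes was −0.32, so values relative to this median gene are given where they alter a call. On that scale 11.3% of the genes were higher and 5.73% lower.

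The libraries also differed outside the wall protein genes. The deleted β-glucosidase genes were low in both, between 0.35 and 3.41 RPKM in Δ3βGΔncw-1 and between 0.342 and 1.09 RPKM in Δ3βG. Of 10 markers of conidia and conidiating hyphae, 9 reached 10 RPKM. Of these, 0 were higher, 3 were lower and 6 were neither, beside 8.08% higher and 11.1% lower of all genes. None of the 10 was at 0 in either library. The markers summed to 2608 RPKM in Δ3βGΔncw-1 and 61384 RPKM in Δ3βG, or to 862 and 1034 RPKM without the hydrophobin gene eas. The 3 lower ones were eas (1746 RPKM in Δ3βGΔncw-1 and 60350 in Δ3βG), acon-3 (2.07 and 43.9 RPKM) and fl (11.99 and 49.9 RPKM). Of these, acon-3 reached 10 RPKM only in Δ3βG. Of the 10, 7 had lower RPKM in Δ3βGΔncw-1, beside 69.4% of all genes that reached 10 RPKM, and 3 had higher RPKM. The 3 were con-8 (514 RPKM in Δ3βGΔncw-1 and 487 in Δ3βG), con-10 (90.0 and 66.1 RPKM) and csp-1 (44.0 and 36.5 RPKM). The other markers were con-6 (157 and 284 RPKM), con-13 (2.25 and 6.48 RPKM), acon-2 (10.4 and 10.7 RPKM) and csp-2 (30.4 and 49.2 RPKM). Mating-type transcripts differed as well. The matA-1 gene had 15.4 RPKM in Δ3βGΔncw-1 and was listed at 0 in Δ3βG, and ccg-4, the pheromone precursor gene of mating type A, had 87.9 RPKM and was listed at 0. In the other direction, mfa-1, the pheromone precursor gene of mating type a, had 35.0 RPKM in Δ3βGΔncw-1 and 141 RPKM in Δ3βG. Of the other matA genes, matA-3 had 0.269 RPKM in Δ3βGΔncw-1 and was listed at 0 in Δ3βG, and matA-2 was listed at 0 in both. No value was obtained for mata-1, also planned as a marker, so mating type a is represented here by mfa-1 alone. The matA-1 and ccg-4 transcripts in Δ3βGΔncw-1 go against the letter a of its label, if that letter gives the mating type. The labels do not say whether it does. The part of these differences in the values of the members was not tested. In RNA from whole mycelia, fewer cells of a type and less RNA per cell cannot be told apart.

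**Figure D1:**
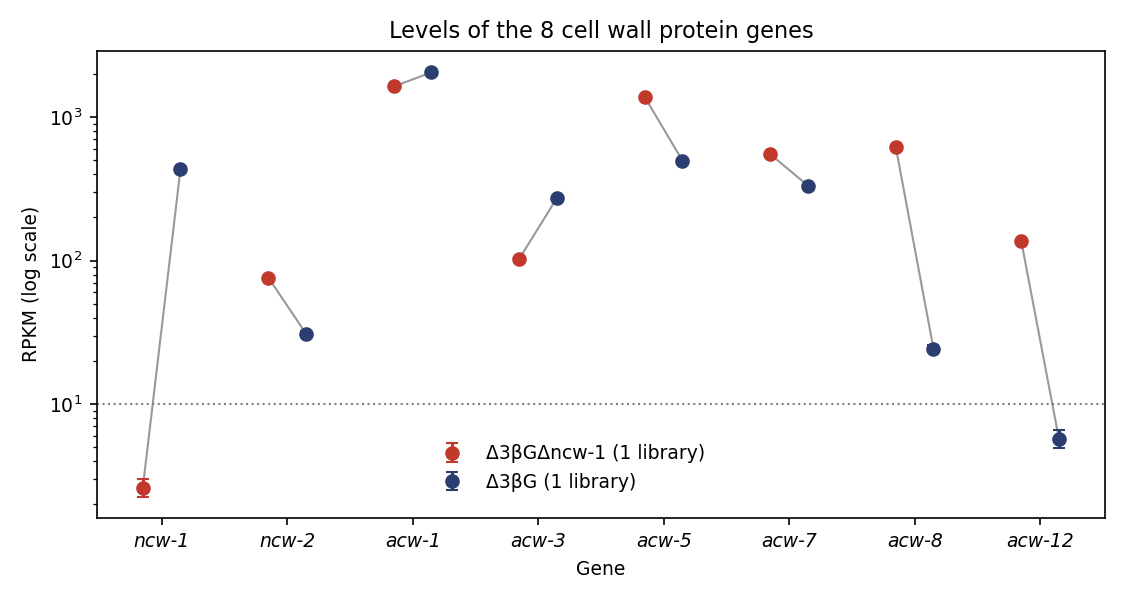
RPKM (log axis) of the 8 genes, with Δ3βGΔncw-1 on the left of each pair and Δ3βG on the right, 1 library each; bars are exact 95% Poisson intervals and the dotted line marks 10 RPKM. From Δ3βG, acw-12 lies below that line at 5.73 RPKM, and from Δ3βGΔncw-1 the deleted ncw-1 does, at 2.62 RPKM.

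As the labels of the strains give it, ncw-1 was nearly lost in Δ3βGΔncw-1, and the other ncw member was higher there. The level of ncw-1 (NCU05137) was 2.62 RPKM in Δ3βGΔncw-1, from 198 reads, against 435 RPKM in Δ3βG, from 33700 reads. It was the third most abundant of the 8 transcripts in Δ3βG and the least abundant in Δ3βGΔncw-1. In Δ3βG it stood at rank 104 of all genes, so its transcript was abundant in cellobiose where the gene was intact. The other member, ncw-2 (NCU01752), had 76.1 RPKM in Δ3βGΔncw-1 and 31.0 RPKM in Δ3βG, which was 2.45-fold higher (95% interval 2.32 to 2.60). Its difference in RPKM was small beside that of ncw-1. In Δ3βGΔncw-1 the summed level of the 6 intact ncw genes was 342 RPKM, against 256 RPKM in Δ3βG, and thus below the 435 RPKM that ncw-1 alone had in Δ3βG.

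Apart from the deleted ncw-1, the largest differences among the members were those of acw-8 and acw-12, both anchored. The level of acw-8 (NCU07277) was 618 RPKM in Δ3βGΔncw-1 and 24.4 RPKM in Δ3βG, 25.3-fold higher (24.1 to 26.7). Of the 5988 genes, 37 had a higher log2 ratio than the 4.61 of acw-8. By level, acw-8 ranked 93 of all genes in Δ3βGΔncw-1 and 3478 in Δ3βG. The level of acw-12 (NCU08171) was 136 RPKM in Δ3βGΔncw-1 and 5.73 RPKM in Δ3βG, 23.8-fold higher (20.8 to 27.5) with 4929 and 212 reads. Only in Δ3βGΔncw-1 did acw-12 reach 10 RPKM, so its direction followed from that limit. Their folds were close and their intervals overlapped, but the levels were not alike: acw-8 had the higher RPKM of the pair in both libraries.

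Unlike acw-8 and acw-12, acw-5 and acw-7 were already abundant in Δ3βG. The level of acw-5 (NCU07776) was 1376 RPKM in Δ3βGΔncw-1 and 497 RPKM in Δ3βG, 2.77-fold higher (2.72 to 2.82). In Δ3βGΔncw-1 it was the 38th most abundant transcript of the table. The level of acw-7 (NCU09133) was 551 RPKM in Δ3βGΔncw-1 and 333 RPKM in Δ3βG, 1.65-fold higher (1.62 to 1.69). That was short of 2-fold as deposited, but its log2 ratio of 0.72 became 1.05 relative to the median gene, which passed it.

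Against these, acw-3 and acw-1 had lower RPKM in Δ3βGΔncw-1. The level of acw-3 (NCU05667) was 103 RPKM in Δ3βGΔncw-1 and 273 RPKM in Δ3βG, 2.66-fold lower (2.58 to 2.74), and its log2 ratio of −1.40 was −1.08 relative to the median gene. The level of acw-1 (NCU08936) was 1634 RPKM in Δ3βGΔncw-1 and 2049 RPKM in Δ3βG, 1.25-fold lower (1.24 to 1.27). The reference annotation lists acw-1 under the name ccg-15, a clock-controlled gene. It was the most abundant member in both libraries, and its log2 ratio of −0.33 was −0.0063 relative to the median gene, which places it beside the median gene.

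Counted together, 4 of the 7 intact members were higher (ncw-2, acw-5, acw-8 and acw-12), 1 was lower (acw-3) and 2 were neither (acw-1 and acw-7). Over all genes above the minimum, 8.08% were higher and 11.1% lower. Measured against the median gene, 5 members counted as higher and 1 as lower, beside 11.3% and 5.73% of all genes. At 4-fold or more, 2 members were higher (acw-8 and acw-12) and 0 lower, against 3.41% and 2.12% of all genes that passed the minimum. All 7 reached 10 RPKM, and 1 of them, acw-12, did so only by its level in Δ3βGΔncw-1. The median log2 ratio of the 7 was 1.27, that of ncw-2, against −0.32 for all genes that reached 10 RPKM. The quartiles of those genes lay at −0.67 and 0.13, and of the 7 only acw-1 fell between them. The members were chosen with earlier results of these data known. How far that choice shaped these contrasts with all genes was not tested. The order of levels differed too. In Δ3βGΔncw-1 it ran acw-1, acw-5, acw-8, acw-7, acw-12, acw-3, ncw-2 and ncw-1. In Δ3βG it ran acw-1, acw-5, ncw-1, acw-7, acw-3, ncw-2, acw-8 and acw-12. No neighbours in either order had overlapping counting intervals, but their spread between cultures is unknown.

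**Figure D2:**
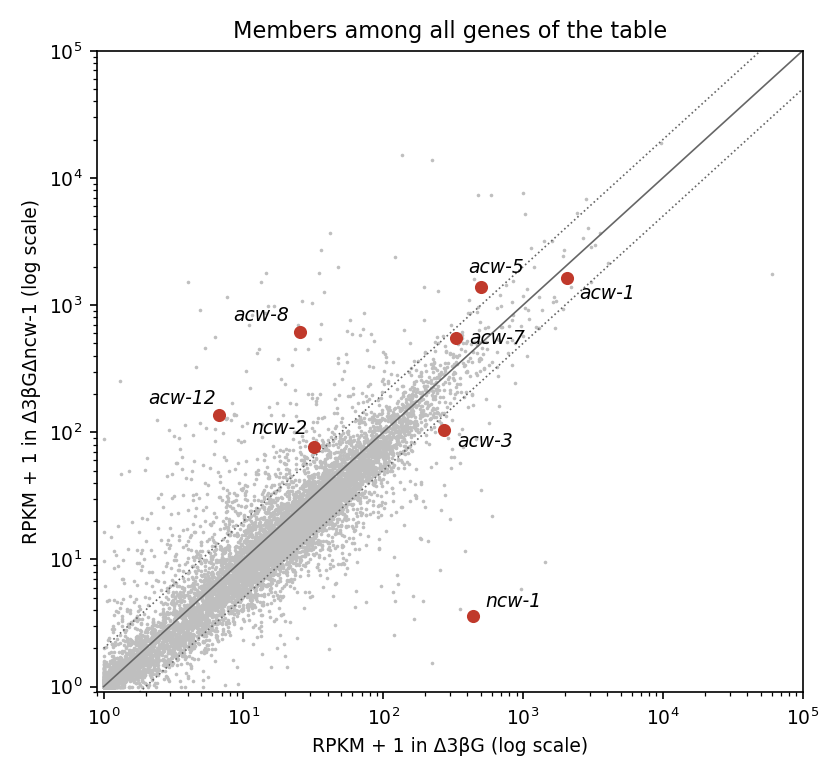
RPKM + 1 of every gene in Δ3βGΔncw-1 (vertical) against Δ3βG (horizontal), both on log axes, with the 8 genes in red; the solid line marks equal values and the dotted lines 2-fold. Well above the upper dotted line lie acw-8 and acw-12, acw-1 lies close to the solid line, and ncw-1 is far below the lower dotted line.

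Of the 11 relatives outside the list, 8 had lower RPKM in Δ3βGΔncw-1 by any amount, as had 69.4% of all genes that reached 10 RPKM, so their direction was that of most genes. Of the 11, 10 reached 10 RPKM, of which 1 was higher, 2 were lower and 7 were neither. Among all genes past the minimum, 8.08% were higher and 11.1% lower. The median log2 ratio of the 11 was −0.50 (−0.18 relative to the median gene). All 6 of the remaining acw genes had lower RPKM in Δ3βGΔncw-1, as deposited and relative to the median gene, but 1 counted as lower on either scale. Relative to the median gene, acw-10, acw-9 and acw-2 lay close to it, with log2 ratios of −0.070, −0.18 and −0.20. The level of acw-4 (NCU09263) was 162 RPKM in Δ3βGΔncw-1 and 437 RPKM in Δ3βG, 2.69-fold lower (2.61 to 2.78), close to the fold of acw-3; its span overlaps that of NCU09264, so reads may be shared. The level of acw-6 (NCU03530) was 663 RPKM in Δ3βGΔncw-1 and 1295 RPKM in Δ3βG, 1.95-fold lower (1.92 to 1.99). The other acw genes differed less. Their levels were 137 RPKM in Δ3βGΔncw-1 and 224 RPKM in Δ3βG for acw-11, 173 and 250 RPKM for acw-2, 688 and 972 RPKM for acw-9, and 145 and 191 RPKM for acw-10, with the strains in the same order throughout.

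Among the remaining ncw genes, ncw-7 (NCU08907), listed as the clock-controlled gene ccg-13, had 88.3 RPKM in Δ3βGΔncw-1 and 21.7 RPKM in Δ3βG, 4.07-fold higher (3.69 to 4.50) and just under 4-fold by RPKM + 1. The level of ncw-6 (NCU00586) was 17.6 RPKM in Δ3βGΔncw-1 and 37.5 RPKM in Δ3βG, 2.13-fold lower (1.94 to 2.33), but it was not past 2-fold relative to the median gene. The other ncw genes were neither or too low to class. The level of ncw-3 was 40.5 RPKM in Δ3βGΔncw-1 and 28.5 RPKM in Δ3βG, and that of ncw-5, under 10 RPKM in both, was 6.99 and 5.002 RPKM. The level of ncw-4 was 112 RPKM in Δ3βGΔncw-1 and 133 RPKM in Δ3βG, a log2 ratio of −0.24 that turned to 0.085 relative to the median gene. Over the whole family without ncw-1, 17 of 18 genes passed the minimum, with 5 higher and 3 lower. Beside them, 8.08% of all genes were higher and 11.1% lower. Listed members made up 4 of the 5 higher genes and 1 of the 3 lower. The 18 had a median log2 ratio of −0.28.

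**Figure D3:**
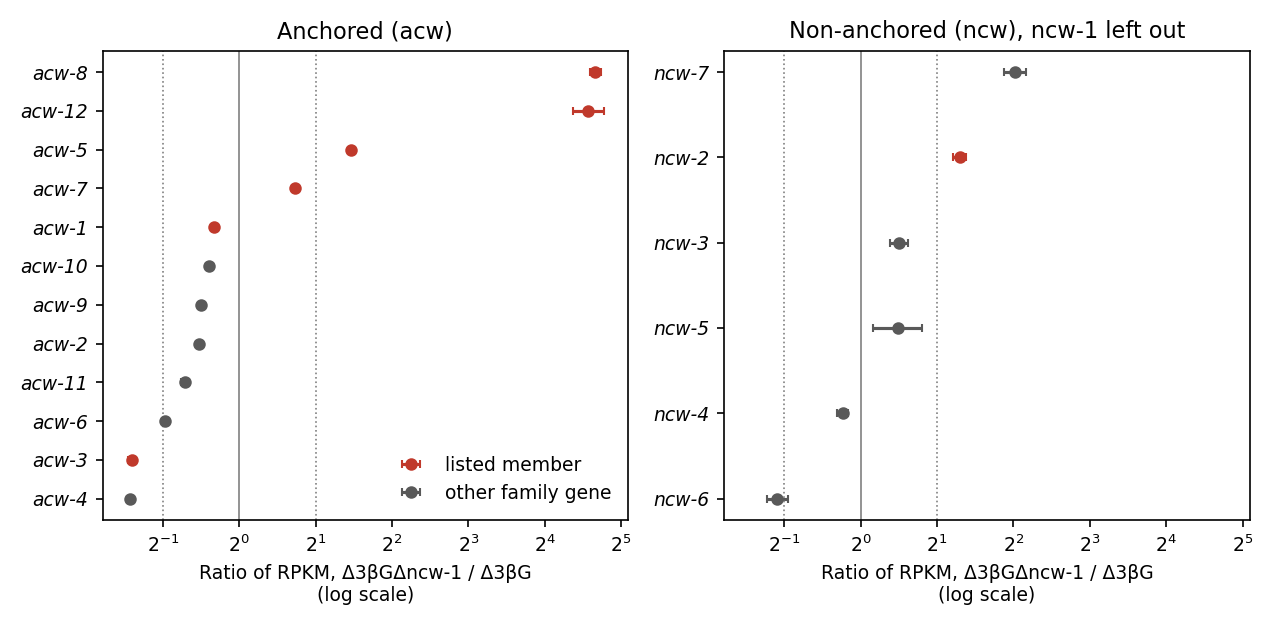
Ratio of RPKM, Δ3βGΔncw-1 over Δ3βG (log axis), for the 12 acw genes (left) and the 6 intact ncw genes (right), with exact 95% counting intervals; red points are the listed members, the solid line marks equal values and the dotted lines 2-fold. The acw genes run from acw-4, 2.69-fold lower, to acw-8, 25.3-fold higher. Every acw gene that is not a listed member lies left of the solid line. The listed members were chosen with earlier results of these data known.

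The summed level of all 12 acw genes was almost the same in both strains on the deposited scale, while its make-up was not. The 12 summed to 6386 RPKM in Δ3βGΔncw-1 and 6550 RPKM in Δ3βG, a ratio of 0.975. The median gene had a log2 ratio of −0.32, so relative to it the sum was higher in Δ3βGΔncw-1. In both, acw-1 held the largest share, 25.6% in Δ3βGΔncw-1 and 31.3% in Δ3βG. In Δ3βGΔncw-1 acw-5 came second with 21.5%, against 7.58% in Δ3βG. In Δ3βG acw-6 came second, and its share was 10.4% in Δ3βGΔncw-1 and 19.8% in Δ3βG. The share of acw-8 was 9.68% in Δ3βGΔncw-1 and 0.372% in Δ3βG, and that of acw-12 was 2.14% and 0.0874%. The 3 acw genes that counted as higher were acw-5, acw-8 and acw-12. Together they summed to 2130 RPKM in Δ3βGΔncw-1 and 527 RPKM in Δ3βG, and the other 9 acw genes to 4256 and 6024 RPKM. The 3 were set apart by that call, so the direction of their sum follows from how they were picked. Of the 12, acw-3 was the least abundant in Δ3βGΔncw-1, with 1.61%, and stood 7th in Δ3βG, with 4.17%.

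**Figure D4:**
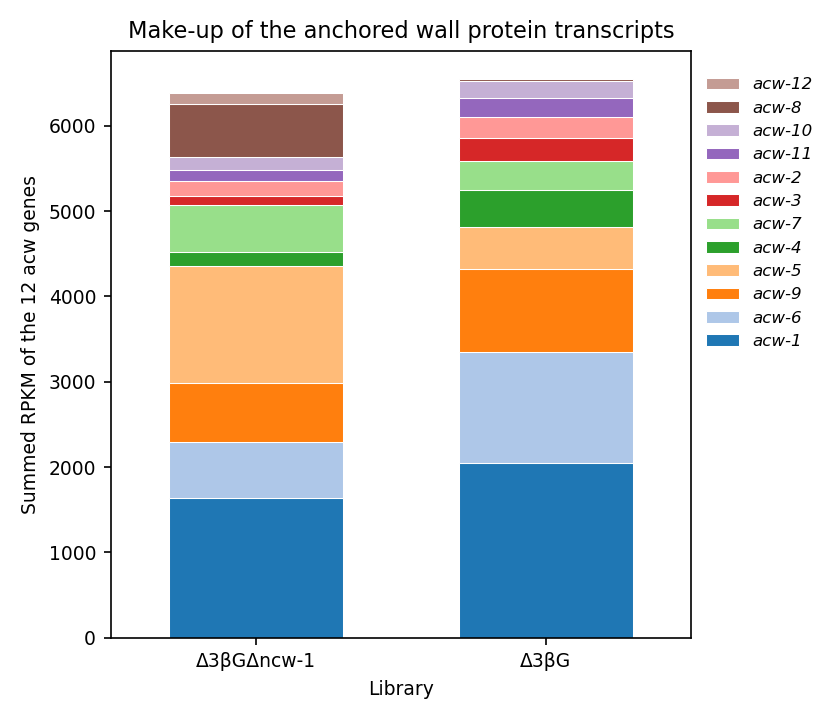
Stacked RPKM of the 12 acw genes in Δ3βGΔncw-1 (left) and Δ3βG (right), 1 library each, with genes stacked in the order of their level in Δ3βG. The bars reach 6386 and 6550 RPKM, and the segments of acw-5 and acw-8 are taller in the Δ3βGΔncw-1 bar.

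The genes beside the members in the genome were taken from the NC12 annotation of strain OR74A. Whether strand was used in counting is not stated in the labels or file headers. Next to ncw-1, and with a span that overlaps it, lies NCU05138. Its level was 22.4 RPKM in Δ3βGΔncw-1, from 764 reads, and 1.20 RPKM in Δ3βG, from 42 reads, 18.6-fold higher (13.7 to 26.1). It reached 10 RPKM only in Δ3βGΔncw-1. Reads of overlapping genes may not be separated, so both its level and that of ncw-1 are uncertain. On the other side, NCU05136 had 318 RPKM in Δ3βGΔncw-1 and 232 RPKM in Δ3βG and was neither. Next to acw-12, NCU08170 had 10.8 RPKM in Δ3βGΔncw-1 and 0.719 RPKM in Δ3βG, 15.04-fold higher (10.03 to 23.5), and it too reached 10 RPKM only in Δ3βGΔncw-1. On its other side NCU08172, whose span overlaps that of acw-12, had 1.34 and 0.707 RPKM. The neighbours of acw-8 were not higher. NCU07279 had 7.69 RPKM in Δ3βGΔncw-1 and 20.0 RPKM in Δ3βG, 2.60-fold lower (2.27 to 2.99). It reached 10 RPKM only in Δ3βG. Its log2 ratio was −0.95 relative to the median gene and thus not past 2-fold. NCU07276 had 14.7 and 18.5 RPKM. The neighbours of ncw-2 (NCU01753 and NCU01751, whose span overlaps it), of acw-5 (NCU07778 and NCU16918) and of acw-3 (NCU05666 and NCU05668) were neither or under 10 RPKM in both libraries.

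Genes that build, remodel and decorate the wall were set beside the members. The list for GPI anchor assembly and outer-chain mannan, through which anchored proteins are made and joined to the wall, held 7 genes. Of these, 0 were higher and 0 were lower, beside 8.08% and 11.1% of all genes that reached 10 RPKM. The 7 had a median log2 ratio of −0.48, or −0.16 relative to the median gene. The lowest was gpip-1, with 17.3 RPKM in Δ3βGΔncw-1 and 35.6 RPKM in Δ3βG. Its RPKM ratio was 2.05-fold lower (1.86 to 2.28), but its log2 ratio of RPKM + 1 fell short of −1, and it counted as lower with a pseudocount of 0.1 RPKM and with equal sums. After it came the mannosyltransferase gene och-1 (14.7 RPKM in Δ3βGΔncw-1 and 28.4 RPKM in Δ3βG), com, also named gpip-3 (7.21 and 13.6 RPKM), and gpig-1 (16.2 and 23.0 RPKM). Among 6 chitin and glucan synthase genes, 5 reached 10 RPKM, and 0 were higher, 1 was lower and 4 were neither. Of all genes that reached 10 RPKM, 8.08% were higher and 11.1% lower. The lower one, chs-4, had 38.4 RPKM in Δ3βGΔncw-1 and 84.8 RPKM in Δ3βG, but was not past 2-fold relative to the median gene. The chitin synthase genes chs-3 (35.7 and 66.8 RPKM) and chs-5 (47.2 and 72.9 RPKM) and the glucan synthase gene do, also named fks (139 and 199 RPKM), were neither.

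Genes for glucan and chitin remodelling went both ways. Of 23, 11 reached 10 RPKM, of which 2 were higher, 1 was lower and 8 were neither. Over all genes that reached 10 RPKM, 8.08% were higher and 11.1% lower. The median log2 ratio of the 11 was −0.19. The chitinase gene chit-1 had 5.41 RPKM in Δ3βGΔncw-1 and 126 RPKM in Δ3βG, 23.3-fold lower (21.5 to 25.3). It reached 10 RPKM only in Δ3βG. In the other direction, gh76-5, of the family of α-1,6-mannanases, had 62.8 RPKM in Δ3βGΔncw-1 and 6.22 RPKM in Δ3βG, 10.1-fold higher (8.91 to 11.5), and it reached 10 RPKM only in Δ3βGΔncw-1. The level of gh16-1 was 49.2 RPKM in Δ3βGΔncw-1 and 11.7 RPKM in Δ3βG, 4.19-fold higher (3.87 to 4.55). The level of gh76-6 was 41.3 RPKM in Δ3βGΔncw-1 and 22.4 RPKM in Δ3βG, 1.84-fold higher (1.71 to 1.98), and it passed 2-fold relative to the median gene but not as deposited. The gh76 genes dfg5 (gh76-7; 67.4 and 77.0 RPKM) and dcw1 (gh76-3; 33.5 and 38.0 RPKM), whose enzymes join glycoproteins to the wall in Neurospora, were neither; these 2 were picked with their values in view.

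**Figure D5:**
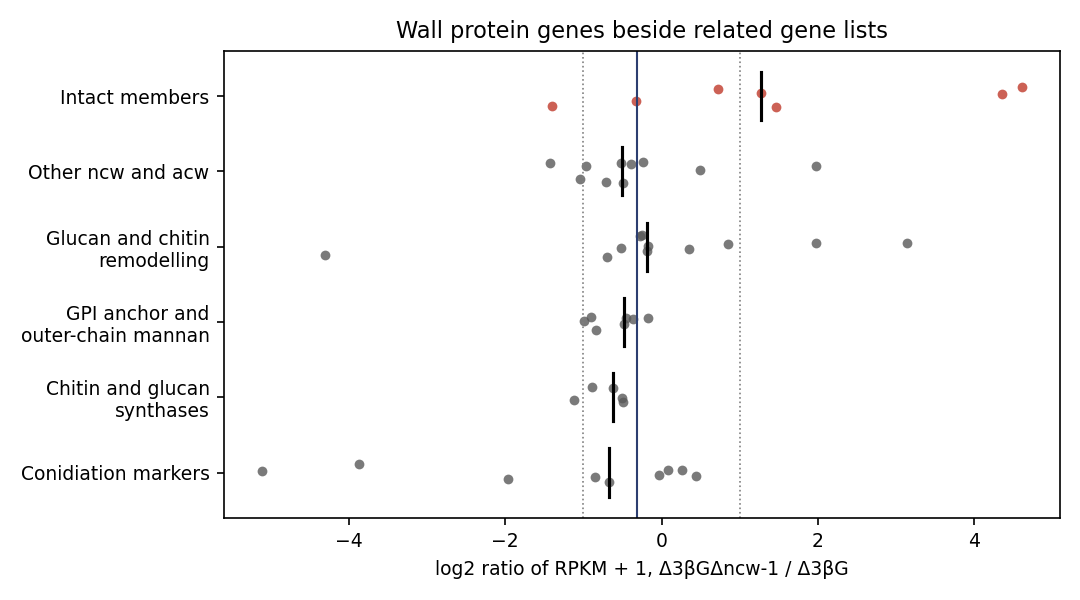
Log2 ratio (Δ3βGΔncw-1 over Δ3βG, RPKM + 1) for the 7 intact members (red) and for the genes of 5 other lists that reached 10 RPKM (grey), with each list's median as a black bar, the median of all genes that reached 10 RPKM (−0.32) as a blue line and 2-fold as dotted lines. The members' median is 1.27, and those of the other lists lie between −0.68 and −0.19. Members and lists were chosen with earlier results of these data known.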

How the data were processed

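RNA of 1 library per genotype was sequenced. The submitters' processing notes name DESeq 1.5.1, TopHat2 2.0.8b and HTSeq 0.5.4p2 without their roles; for build, annotation and strand counting the sources used here give nothing. The authors deposited RPKM values in 1 table, with 1 column per library per the file headers; 0 columns were left unused. Symbols and gene neighbours came from the NC12 reference gene table, which matched 9729 of 9730 genes. As its build may differ, no coordinates are given.

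Computed here, with Python 3.11.15, numpy 2.4.6 and scipy 1.17.1, were ratios, log2 ratios with a pseudocount of 1 RPKM, and counts of genes past 2-fold on RPKM + 1 among those that reached 10 RPKM. Whole reads were recovered from the steps between RPKM values, tested on simulated data first. A length between 50% and 100% of the span gave whole reads in both libraries, within 1e-06 reads plus 1e-09 of the read number, for 9264 of 9264 genes above 0, and a single such length for all 19 family genes. Intervals cover counting error only.

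The members and lists were chosen with earlier results of these data known. Named are all ncw and acw genes, the deleted genes, the neighbours of ncw-1 and of members past 2-fold, and all conidiation and mating-type markers. From each wall list the 4 genes above the minimum whose log2 ratio was largest in size are named. The genes dfg5 and dcw1 were added with their values in view. A glucose phosphate isomerase gene that matched the GPI list by its symbol was removed. Alternatives were pseudocounts of 0.1 and 5 RPKM, minima of 5, 50 and no RPKM, 3 scalings (equal sums, median gene, trimmed mean) and folds of 1.5 and 4.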

Additional observations from a re-analysis of the deposited data

How the results depend on the processing

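With 1 library per genotype, no left-out replicate and no spread between cultures could be had; the intervals show what depth alone allows. No paired analysis was possible because each genotype had 1 library. Of the 7 intact members, acw-8 and acw-12 were called higher under the main setting and all 10 alternatives, and ncw-2 and acw-5 under all but the 4-fold rule. The same holds for acw-3, lower. The call of acw-7 turned to higher under median centring, the trimmed mean and the 1.5-fold rule. At 4-fold, 2 members were higher and 0 lower, against 3.41% and 2.12% of all genes. The members' median log2 ratio was 1.17 with a pseudocount of 5 RPKM, 1.59 relative to the median gene and 1.59 by the trimmed mean.

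Over all genes, 484 were higher and 664 lower, against 676 and 343 under median centring, a change of balance that follows from the median of −0.32. The trimmed mean gave 353 lower and a pseudocount of 5 RPKM 425. A minimum of 50 RPKM gave 268 higher and 240 lower, the 1.5-fold rule 752 and 1832, and the 4-fold rule 204 and 127. Among the 11 relatives, 1 was lower with a pseudocount of 5 RPKM, a minimum of 50 RPKM, median centring or the trimmed mean. With equal sums 3 were lower, beside 750 of the 5988 genes. At 1.5-fold 4 were lower, beside 1832 of the 5988. At 4-fold on RPKM + 1, 0 were higher and 0 lower, beside 3.41% and 2.12% of all genes, although the RPKM ratio of ncw-7 was 4.07. No member's log2 ratio, nor their median, changed sign under any of the 10 alternatives.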
